A study of Homo sapiens with 12 samples.

Results

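The values described here are those of 10 Eph receptor and ephrin genes (EPHB2, EPHB3, EPHB4, EPHA1, EPHA2, EPHA4, EFNA1, EFNA4, EFNB1 and EFNB2) in 2 human cell lines. The members are the 14 of 41000 array probes whose RefSeq accession belongs to one of these genes, out of 17240 genes that could be named. EPHA4 has 3 probes, EFNA1 and EFNB2 have 2 each, and the other genes have 1, and each probe was printed as 1 spot per array. RNA was hybridized to 12 dual-color Agilent arrays on 5 slides. Ls174T is a colorectal cancer line with constitutive Wnt signaling, and HEK293T is an embryonic kidney line in which the pathway is intact and responds to added Wnt3A. All cells carried 15 nM siRNA for 72 h. In Ls174T cells, RNA depleted of β-catenin, the coactivator that carries the Wnt signal to chromatin, was set directly against si-control RNA on 2 arrays with the dyes exchanged, and 1 array each set the RNA of si-control cells and of cells depleted of MLLT10/AF10, of BRG1 or of p300 against universal human reference RNA. For HEK293T, the si-control cells were kept for 9 h in either control or Wnt3A medium, and cells depleted of MLLT10/AF10, of DOT1L, of BRG1 or of p300 were kept for 9 h in Wnt3A medium, with 1 array for each and the same reference RNA. MLLT10/AF10 is the partner of the histone H3K79 methyltransferase DOT1L, BRG1 is the ATPase of SWI/SNF chromatin remodelers, and p300 is a histone acetyltransferase. Each condition has 1 biological replicate, the β-catenin pair included, so no test between conditions was possible and no p-value is given. The error beside a value is the error of the image analysis program combined over the arrays compared. It leaves out the spread between cultures.

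Eph receptors are receptor tyrosine kinases, and ephrins are their ligands on the surface of neighboring cells. A-type ephrins are held in the membrane by a lipid anchor and B-type ephrins by a transmembrane segment, so that contact between cells can signal into both of them and lead to repulsion or sorting. In the intestinal crypt, EphB2 and EphB3 are known from the proliferating cells at the base, where Wnt signaling is high, and ephrin-B ligands from the differentiating cells above. In bulk RNA, fewer cells that carry a transcript and less of it per cell cannot be told apart.

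Before the values, the regions upstream of 3 members are shown, namely EPHB3 and EFNB2, which had the largest decrease and increase after β-catenin depletion among the member probes whose 4 channels on the pair were all well above background, and EFNA4, the only member with a match to the motif bound by TCF/LEF factors. All 10 members had an entry in the RefSeq promoter table (build GRCh38.p14), which holds 250 bases before and 50 bases after each start. The letters searched for TCF/LEF were CTTTG followed by AA, AT, TA or TT, on both strands, and 13.8% of the 35116 promoters in the table hold at least 1 of them. The other letters searched were the GC box GGGCGG on both strands, which 45.0% of the promoters hold and which was found in all 10 members. Capitals mark these matches. The EPHB3 stretch is the 250 bases before the start (chr3:184561535-184561784, plus strand), the EFNB2 stretch is the same window of its gene (chr13:106535663-106535912, minus strand), and the EFNA4 stretch covers 40 bases before and 20 bases from the start (chr1:155063700-155063759, plus strand).
EPHB3: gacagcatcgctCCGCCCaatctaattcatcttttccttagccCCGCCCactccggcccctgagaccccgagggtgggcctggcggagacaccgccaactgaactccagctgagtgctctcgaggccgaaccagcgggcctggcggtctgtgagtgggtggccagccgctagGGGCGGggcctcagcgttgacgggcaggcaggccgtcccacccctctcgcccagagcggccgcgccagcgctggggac
EFNB2: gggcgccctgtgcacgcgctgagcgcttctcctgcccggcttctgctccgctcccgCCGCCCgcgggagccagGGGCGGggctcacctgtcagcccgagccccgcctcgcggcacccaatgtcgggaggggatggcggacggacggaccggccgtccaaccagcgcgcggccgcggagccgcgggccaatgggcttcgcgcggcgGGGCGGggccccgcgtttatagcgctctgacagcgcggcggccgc
EFNA4: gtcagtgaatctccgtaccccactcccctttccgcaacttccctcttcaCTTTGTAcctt
The EPHB3 and EFNB2 stretches each hold 3 GC boxes and no TCF/LEF letters. The single EFNA4 match runs from base 10 to base 16 counted from the start. Of the 3 genes shown, the windows held 78.7% G and C in EFNB2, 69.0% in EPHB3 and 58.3% in EFNA4, beside a median of 58.7% over all promoters in the table. The other members lay between 62.0% in EPHA1 and 83.0% in EPHB2, except EPHA4, whose 2 listed starts had 43.0% and 74.3%. A match or its absence describes these letters in this window and nothing about the factor.

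The median program error per array was 0.211 to 0.228 on the log2 scale. It was taken over features above 2-fold the local background in either channel. Of 43376 features per array, 18104 and 23077 were well-measured on the β-catenin pair, meaning above 2-fold the local background in either channel, and 27717 to 31011 on the other arrays. The depleted factors were lower on most of their probes, with log2 changes of −2.70 and −2.49 for the CTNNB1 probes after β-catenin depletion, −1.42 in Ls174T and −1.76 in HEK293T cells for MLLT10 and −2.35 for EP300 in HEK293T cells. Of the 3 SMARCA4 (BRG1) probes, all lower with BRG1 depleted, A_23_P39034 was at −2.53 in Ls174T and −3.96 in HEK293T cells. After DOT1L depletion, DOT1L probes were at −1.97 and −1.41, whereas A_24_P936875 was at 0.17 ± 0.30 and was not lower. In p300-depleted Ls174T cells, the EP300 probes had log2 changes of −0.60 ± 0.48 and −1.31 ± 0.14, with a signal that was not well above background on every array. All 10 colon epithelium markers checked were well above background on the Ls174T si-control array, with a summed signal over the 6 Ls174T arrays of 231084 to 445729 and of 1393 to 1900 in HEK293T cells, where CDH17 was not well above background on any array. On the HEK293T arrays, 5 to 9 of the 10 colon markers were still well above background. Of the HEK293 markers, NEFL and NEFM were not well above background on the Ls174T si-control array and were on all HEK293T arrays. The remaining marker, VIM, was well above background on the Ls174T si-control array too, with its probes at −7.18 and −5.94 against HEK293T si-control. On the BRG1-depleted Ls174T array all 3 were well above background.

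Among the depletions, that of β-catenin in Ls174T cells gave the largest differences of the members, down for EPHB3 and EPHA4 and up for EFNB1 and EFNB2. Of 13 well-measured member probes, 3 were lower and 3 higher past 2-fold, beside 1.17% lower and 4.48% higher of all 16513 well-measured probes. The median change of the members was −0.27 and that of all probes −0.02.

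EPHB3, a crypt base receptor for B-type ephrins, gave log2 ratios of depleted over si-control RNA of −2.22 and −2.05 on the 2 arrays. Its change was −2.14 ± 0.20, a 4.40-fold lower level, and 0.164% of all probes were lower by as much. Both dye orientations gave nearly the same value. EPHB2, the other crypt base receptor, gave −1.16 and −0.72, so that only the first array was past 2-fold and the mean of −0.94 ± 0.16 was just inside the threshold. The signal of EPHB2 was 2773 and 2855 processed intensity units in the si-control channel and 1239 and 1735 in the depleted channel. These units are not scaled between arrays, so the difference between the arrays cannot be placed in 1 channel. EPHB4, a receptor for ephrin-B2 best known from the vasculature, gave −0.28 and −0.21, with a change of −0.25 ± 0.20.

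EPHA4, a receptor that binds ligands of both ephrin classes, was lower on each spot that measured it. Probe A_23_P108501, the brightest of the 3 in these cells, gave −1.38 and −1.05, for a change of −1.21 ± 0.17. Probe A_23_P119899 gave −1.47 and −2.93, and on the second array the depleted channel was not well above background. Probe A_24_P274219 gave −1.51 on the first array and had no usable signal in either channel on the second, so it was not tested. The first array thus put the 3 probes close together, and the value of −2.20 ± 0.29 for A_23_P119899 rested on the dim spot of the second array. EPHA2, an epithelial receptor for ephrin-A1, gave 0.58 and 0.29, for a change of 0.44 ± 0.16. EPHA1, another receptor of epithelia, gave 0.15 and −0.05, a change of 0.05 ± 0.19 with signals of 97.7 to 138 units.

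EFNB2 encodes ephrin-B2, a transmembrane ligand of EphB receptors and of EphA4. Its probe A_24_P355944 gave 2.99 and 2.82, and its processed signal was 1219 and 802 in si-control RNA and 9656 and 5675 in depleted RNA. The change was 2.90 ± 0.24, a 7.48-fold higher level, and 0.394% of all probes were higher by as much. Probe A_23_P428139 gave 2.52 and 2.68 (change 2.60 ± 0.25) on much dimmer spots, with the si-control channel of the second array not well above background. EFNB1, which encodes the related ligand ephrin-B1, gave 0.99 and 1.05, a change of 1.02 ± 0.16 that lay just past the threshold. The A-type ligands were on the other side of 0. EFNA4 (ephrin-A4) gave −0.49 and −0.88 (change −0.69 ± 0.15), and the EFNA1 (ephrin-A1) probes gave −0.38 and −0.36 (A_23_P113005) and −0.15 and −0.39 (A_23_P254512), none past 2-fold. Among the B class, both crypt base receptors were thus lower and both ligands higher on each of the 2 arrays.

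**Figure D1:**
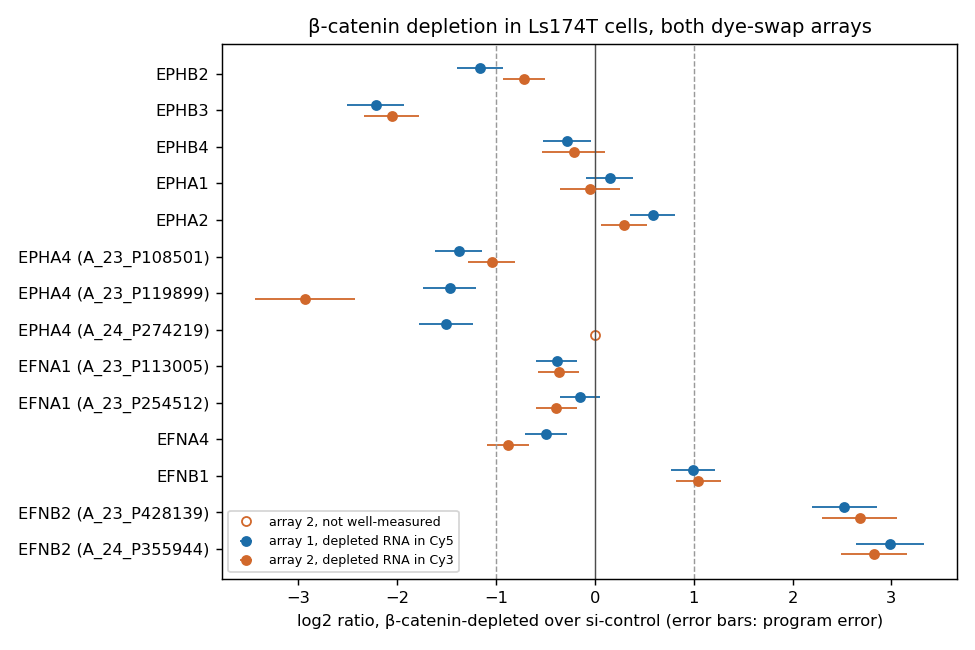
Log2 ratio of β-catenin-depleted over si-control RNA for each member probe on both arrays of the dye-swap pair, with the program error as bars and dashed lines at 2-fold. EPHB3 lies near −2 and both EFNB2 probes between 2.5 and 3 on both arrays, and the open circle marks the EPHA4 spot that was not well-measured.

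Some of these changes depended on the processing. With normexp background correction and loess together in place of the program's own correction and dye normalization, 3 of the 6 probes stayed past 2-fold (EPHB3 at −2.01 and EFNB2 at 2.67 and 1.38), EPHA4 moved to −0.97 and −0.90, and EFNB1 to 0.98. Lists from general knowledge were also read from the same pair. Of 15 well-measured probes of 16 Wnt target genes, 11 were lower and 0 higher past 2-fold, with a median of −1.25. Of 14 probes of the colon epithelium markers, 8 were higher and 0 lower, with a median of 1.41, among them KRT20 at 4.78 ± 0.35, LGALS4 at 3.29 ± 0.26 and CDH17 at 2.08 ± 0.20. The part of this marker shift in the ephrin and Eph values was not tested. Downstream of the receptors, the 41 well-measured probes of the Eph pathway list (adaptors, Src-family kinases, exchange factors and proteases) had 0 past 2-fold in either direction, with a median of 0.11.

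Depletion of the 3 chromatin cofactors in Ls174T cells gave smaller differences. Of 14 well-measured member probes, 0 were past 1.5-fold with MLLT10/AF10 depleted, beside 2.13% higher and 2.41% lower of all probes. With BRG1 depleted the count was also 0, beside 7.77% higher and 4.87% lower. With p300 depleted 2 were lower and 0 higher, beside 5.6% lower and 9.31% higher. The MLLT10/AF10 array shares its slide with the si-control array, whereas the BRG1 and p300 arrays share another, so that slide and condition cannot be told apart for these.

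EPHB2 had a log2 ratio to the reference of 3.51 on the si-control array and of 3.33, 2.99 and 2.82 with MLLT10/AF10, BRG1 and p300 depleted. The changes were −0.19 ± 0.54, −0.53 ± 0.52 and −0.69 ± 0.51. The last is past 1.5-fold, but less than 2 times its program error. On the sample channel alone the p300 change was −0.49, inside the threshold, and the BRG1 change was 0.32, in the other direction. EPHB3 gave 4.96, 4.83, 4.56 and 4.75 on the same arrays, all within 0.40 of each other, which is less than the combined error of 0.70. On the sample channel alone its p300 change was 0.67, past 1.5-fold and in the other direction than the −0.21 from the ratios. With normexp and loess, BRG1 depletion gave −1.03 for EPHB2 and −0.79 for EPHB3. EPHB4 stayed between 1.45 and 1.68. For both crypt base receptors the size of the change, and for some depletions its direction, thus depended on the scaling.

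EFNB2 showed the widest range among the ligands in these cells. Probe A_24_P355944 gave 1.01 on the si-control array and 1.34, 0.73 and 0.56 with MLLT10/AF10, BRG1 and p300 depleted, and probe A_23_P428139 gave 2.90, 3.18, 2.48 and 2.22. Both probes put the 4 arrays in the same order, with MLLT10/AF10 depletion highest and p300 depletion lowest. The p300 change was −0.68 ± 0.50 on A_23_P428139, past 1.5-fold, and −0.45 ± 0.31 on A_24_P355944, inside it. On the sample channel alone the former was −1.62, and the BRG1 change of this probe was −1.29. BRG1 against p300 depletion, which share a slide, differed by 0.26 and 0.17 on these probes. EFNB1 gave 0.25, 0.26, 0.20 and 0.01, EFNA4 0.92, 0.89, 0.74 and 0.77, and the EFNA1 probes 0.46, 0.42, 0.18 and 0.18 (A_23_P113005) and −0.31, −0.35, −0.54 and −0.45 (A_23_P254512), with changes between −0.28 and 0.01.

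The ratios of the remaining receptors differed little in Ls174T cells. EPHA1 gave 2.80, 2.82, 2.65 and 2.62, although on the sample channel alone it was at −0.68 with BRG1 and −0.87 with p300 depleted. EPHA2 gave 1.91, 2.03, 1.57 and 2.09, with BRG1 depletion lowest at −0.34 ± 0.37. All 12 values of the EPHA4 probes lay between −0.27 and 0.16. Although 13 of 14 member probes were below 0 after BRG1 depletion, with a median of −0.21 beside −0.01 over all probes, none was past the threshold, and all 14 share 1 si-control array. With normexp and loess, 6 probes were lower past 1.5-fold, EPHA1 the most (−1.49). When background values far from the rest of the array were first set to its median, 0 were. Colon epithelium markers were lower in the same comparisons, with 6 of 15 probes past 1.5-fold for BRG1 (KRT20 −2.21 ± 0.57) and 5 of 14 for p300 (CDH17 −1.68 ± 0.99), and their part in the Eph and ephrin values was not tested. Of the Eph pathway list, 2 of 54 probes were lower with BRG1 depleted, the kinases ABL1 (−0.75 ± 0.33) and YES1 (−0.72 ± 0.47), and 3 of 55 with p300 depleted, the exchange factor VAV3 (−1.30 ± 0.37 and −0.87 ± 0.29) and the adaptor GRB10 (−0.93 ± 0.30). The probes higher in this list (1 for MLLT10/AF10, 1 for BRG1 and 2 for p300) were not well above background on every array compared.

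**Figure D2:**
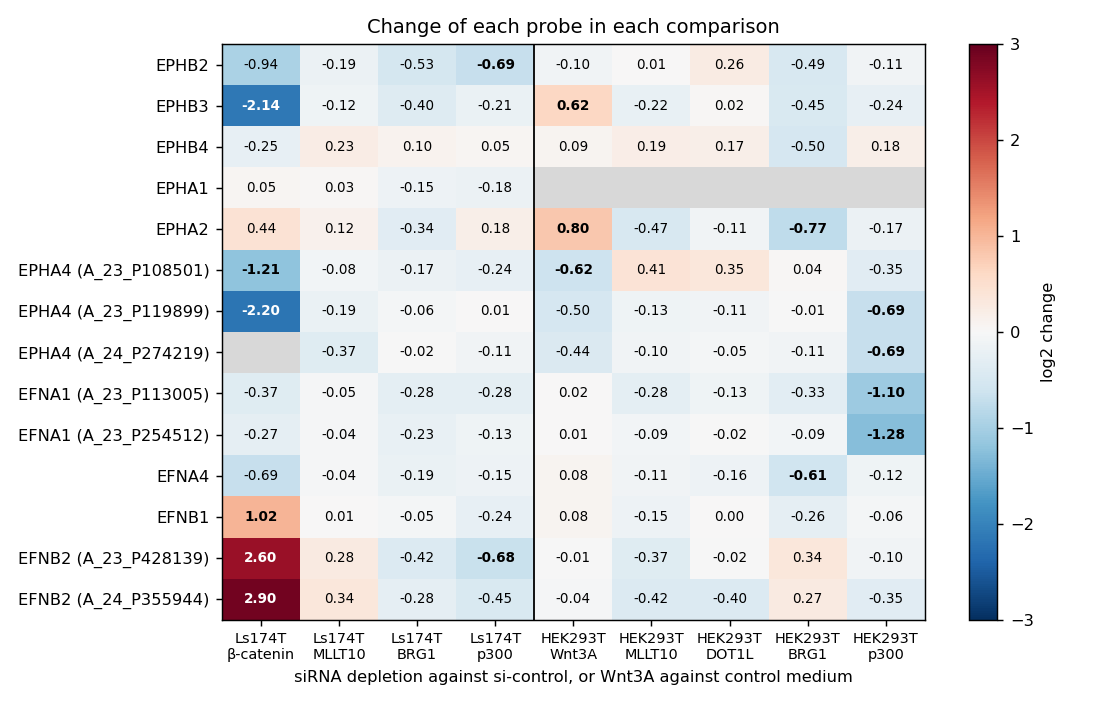
Log2 change of each member probe in each comparison, with cells past the threshold in bold (2-fold for β-catenin depletion, 1.5-fold for the others) and grey cells not well-measured. The β-catenin column holds the strongest colors, with EFNB2 at 2.60 and 2.90 and EPHB3 at −2.14, and EFNA1 stands out in the p300 column of HEK293T cells at −1.10 and −1.28.

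Wnt3A in HEK293T cells left most members near their level in control medium. Of 13 well-measured probes, 2 were higher past 1.5-fold (EPHA2 and EPHB3) and 1 lower (an EPHA4 probe), beside 3.77% higher and 2.77% lower of all 27053 well-measured probes. The Wnt3A si-control array is the only one on its slide, so Wnt3A and slide cannot be told apart in this comparison. The control medium array shares a slide with the MLLT10/AF10- and DOT1L-depleted arrays, which also had Wnt3A, and these give a comparison within a slide. In that comparison Wnt3A and depletion change together and cannot be told apart.

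EPHB3 had a log2 ratio to the reference of −1.08 in control medium and −0.46 in Wnt3A, a change of 0.62 ± 0.32. In Wnt3A with MLLT10/AF10, DOT1L, BRG1 and p300 depletion it was −0.67, −0.43, −0.91 and −0.70. The control medium array was thus the lowest of the 6, although its nearest neighbor, BRG1 depletion, lay above it by less than the program error of either array. Within the slide, DOT1L-depleted cells in Wnt3A were higher than control medium by 0.64 and MLLT10/AF10-depleted cells by 0.40. The change was 0.37 on the sample channel alone, reversed to −0.34 with normexp and loess, and was 0.68 when the outlying background values were first set to the array median. The EPHB3 spots were dim, at 2.06-fold the local background in control medium and 2.84-fold in Wnt3A.

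EPHA2 gave −0.06 in control medium and 0.74 in Wnt3A (change 0.80 ± 0.32), then 0.27, 0.63, −0.03 and 0.58 under MLLT10/AF10, DOT1L, BRG1 and p300 depletion. Here too the control medium array was the lowest, and BRG1 depletion was level with it. Within the slide the DOT1L-depleted array was higher by 0.69 and the MLLT10/AF10-depleted array by 0.32. The Wnt3A change was inside 1.5-fold on the sample channel alone (0.53), with normexp and loess (0.31), and when the outlying backgrounds were first set to the median (0.56). The EPHA2 spots were also dim, at 2.21-fold the local background in control medium and 2.83-fold in Wnt3A.

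EPHA4 went the other way on all 3 probes. Probe A_23_P108501 gave 1.09 in control medium and 0.47 in Wnt3A (change −0.62 ± 0.31), A_23_P119899 gave 1.11 and 0.62 (−0.50 ± 0.31), and A_24_P274219 gave 1.16 and 0.71 (−0.44 ± 0.32). On the 4 depleted arrays in Wnt3A these probes reached at most 0.88, 0.61 and 0.67, so that the control medium array was the highest of the 6 for each probe, also on the sample channel alone. On that channel the Wnt3A changes were −0.56, −0.85 and −0.47, so that a different EPHA4 probe was past 1.5-fold. With normexp and loess the changes of the 3 probes were −0.50, 0.10 and 0.18, none past the threshold and 2 of them turned. Over all 25056 probes well-measured on the 6 arrays, 13.8% had every Wnt3A array above the control medium array and 14.9% had every one below it. The 5 Wnt3A arrays share that 1 control array.

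The ratios of the other members were close between Wnt3A and control medium. EPHB2 gave 1.51 in control medium and 1.40 in Wnt3A, and EPHB4 1.31 and 1.40. The changes of the ligands lay between −0.04 and 0.08, with both EFNA1 probes at 0.02 and 0.01 and both EFNB2 probes at −0.01 and −0.04. After β-catenin depletion in Ls174T cells EFNB2 was several-fold higher and EFNB1 just past 2-fold higher. Here neither ligand showed a difference beyond the error in these ratios. With normexp and loess, however, 4 probes passed 1.5-fold, namely EFNA1 A_23_P113005 (−1.02), EFNB2 A_23_P428139 (1.19), EPHB2 (0.78) and EPHB4 (0.67). With the outlying backgrounds first set to the median, these were 0.07, −0.18, −0.03 and 0.16. EPHA1 was not well above background on any of the 6 HEK293T arrays and was not tested. On the sample channel alone EPHB2 was 0.59 higher in Wnt3A and EFNB2 A_23_P428139 was at −0.70, which the ratios to the reference did not show. Of 20 well-measured probes of the Wnt target genes, 6 were higher past 1.5-fold and 0 lower, among them AXIN2 at 1.08 and DKK1 at 1.19. Of 9 colon epithelium probes, 5 were also higher and 0 lower, and their part in the Eph and ephrin values was not tested. Of the 55 Eph pathway probes, 1 was higher (the adaptor SLA, 1.04 ± 0.55) and 1 lower (YES1, −0.78 ± 0.36).

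**Figure D3:**
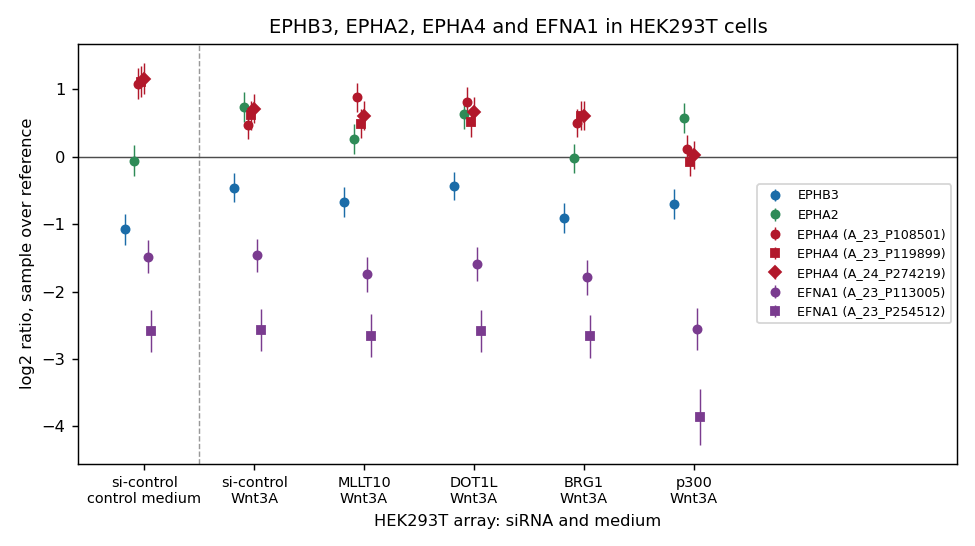
Log2 ratio to the reference of EPHB3, EPHA2, EPHA4 and EFNA1 probes on the 6 HEK293T arrays, with the program error as bars and a dashed line between control medium and Wnt3A. EPHB3 and EPHA2 are lowest and EPHA4 is highest in control medium, and EFNA1 is lowest after p300 depletion at −2.56 and −3.85.

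Among the depletions in HEK293T cells, all in Wnt3A and compared with the si-control Wnt3A array, that of p300 stood out by EFNA1. Of 13 well-measured probes, 4 were lower past 1.5-fold after p300 depletion (both EFNA1 probes and EPHA4 probes A_23_P119899 and A_24_P274219) and 0 higher, beside 7.9% lower and 4.17% higher of all probes. With BRG1 depleted 2 were lower (EPHA2 and EFNA4) and 0 higher, beside 11.7% lower and 10.4% higher. With MLLT10/AF10 depleted 0 of 13 were past 1.5-fold, beside 3.51% higher and 3.81% lower, and with DOT1L depleted also 0, beside 2.1% higher and 3.53% lower. None of the 4 depleted arrays shares a slide with the Wnt3A si-control array, so slide and depletion cannot be told apart. Markers moved in the same comparisons. After p300 depletion the HEK293 markers VIM (−1.05 ± 0.32 and −0.87 ± 0.33) and NEFL (0.61 ± 0.72 and 1.04 ± 0.59) moved in opposite directions, and the summed signal of this list was 123624, beside 157071 to 173099 on the other 5 arrays. Colon epithelium probes, dim in these cells, were lower past 1.5-fold for 1 of 9 with MLLT10/AF10, 4 of 10 with DOT1L, 4 of 8 with BRG1 and 5 of 9 with p300 depleted. The part of these shifts in the Eph and ephrin values was not tested.

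EFNA1 probe A_23_P254512 gave log2 ratios of −2.58 in control medium, −2.57 in Wnt3A, −2.66, −2.59 and −2.66 after MLLT10/AF10, DOT1L and BRG1 depletion, and −3.85 after p300 depletion. Probe A_23_P113005 gave −1.48, −1.46, −1.75, −1.59, −1.79 and −2.56 in the same order. On both probes 5 arrays lay close together and the p300 array well below them. The p300 changes were −1.28 ± 0.52 and −1.10 ± 0.40, or 2.43- and 2.14-fold lower, and the BRG1-depleted array on the same slide was higher than the p300 array by 1.19 and 0.77. On the sample channel alone the p300 changes were −1.18 and −1.32, and with normexp and loess −1.24 and −0.77. In p300-depleted Ls174T cells the changes of the same probes were −0.13 ± 0.29 and −0.28 ± 0.29, with EP300 itself at −0.60 and −1.31. The difference between the lines was not tested.

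EPHA4 gave its lowest HEK293T values after p300 depletion on all 3 probes, at 0.12, −0.07 and 0.02. The changes were −0.35 ± 0.29, −0.69 ± 0.30 and −0.69 ± 0.30, the last 2 past 1.5-fold, and with normexp and loess −0.40, −0.53 and −0.52, all inside it. BRG1 depletion, on the same slide, was 0.38, 0.68 and 0.59 above p300 depletion. After MLLT10/AF10 and DOT1L depletion the probes did not move together. A_23_P108501 was at 0.41 and 0.35, whereas the other 2 lay between −0.13 and −0.05.

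In the ratios to the reference, BRG1 depletion gave the lowest HEK293T value of 4 members. How many of all probes were lowest on that array was not counted. On the sample channel alone this held only for EPHB2 and EFNA4. There EPHB4 was lowest in control medium and EFNB1 with MLLT10/AF10 depleted. In the ratios, EPHB2 was at 0.91, beside 1.30 to 1.66 on the other 5 arrays. EPHB4 was at 0.90, beside 1.31 to 1.59. EFNA4 was at −1.06, beside −0.61 to −0.45, and EFNB1 was at −0.70, beside −0.58 to −0.44. Probe A_23_P113005 of EFNA1 was lower only with p300 depleted, and EPHA2 was at the control medium level (change −0.77 ± 0.32). Of these changes only EPHA2 and EFNA4 (−0.61 ± 0.31) were past the threshold, and on the sample channel alone EPHA2 was at −0.30 and EPHB2 at −1.04. With normexp and loess neither of these calls was kept (EPHA2 −0.33, EFNA4 −0.16), and EPHB2 (−0.73) and EPHB4 (−0.65) were past the threshold instead. With the outlying backgrounds first set to the median, EFNA4 was at −0.61, EPHA2 at −0.48, EPHB2 at −0.49 and EPHB4 at −0.48. EFNB2 was the exception in these ratios, with its highest HEK293T value after BRG1 depletion on both probes, 2.98 on A_23_P428139 and 1.48 on A_24_P355944, and changes of 0.34 ± 0.49 and 0.27 ± 0.34. The former depended on the scaling, at 1.45 on the sample channel alone and −0.86 with normexp and loess, whereas the latter was 0.42 and 0.24.

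MLLT10/AF10 and DOT1L depletion, which share a slide, differed most on EPHA2 among the 13 probes, at −0.37 ± 0.31. In the ratios, EFNB2 gave its lowest values of A_23_P428139 and A_24_P355944 after MLLT10/AF10 depletion, 2.27 and 0.79, with changes of −0.37 ± 0.47 and −0.42 ± 0.32. After DOT1L depletion these probes were at 2.62 and 0.81, with changes of −0.02 ± 0.48 and −0.40 ± 0.32. The change of EPHA2 was −0.47 with MLLT10/AF10 depleted and −0.11 with DOT1L depleted. The Eph pathway list had 1 of 53 probes higher and 1 lower for MLLT10/AF10, 0 and 1 of 55 for DOT1L, 2 and 9 of 54 for BRG1, and 0 and 2 of 54 for p300. Those lower after BRG1 depletion included the adaptor GRB7 (−2.26 ± 0.42), the scaffold ITSN1 on one probe (−1.24 ± 0.30, with another probe at 0.77 ± 0.30) and the exchange factor NGEF (−1.07 ± 0.30), which acts downstream of EphA4. After p300 depletion SLA (−1.35 ± 0.57) and GRB7 (−0.96 ± 0.34) were lower.

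The 2 lines differed in most receptors and in the A-type ligands. Between the Ls174T si-control array and the HEK293T si-control array in control medium, 6 of 13 well-measured member probes were higher in Ls174T past 2-fold and 3 lower, beside 14.0% higher and 18.9% lower of all 25557 probes. The arrays lie on different slides and the lines also differ in medium, so these are differences between samples of the lines.

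EPHB3 gave 4.56 to 4.96 on the 4 Ls174T reference arrays and −1.08 to −0.43 on the 6 HEK293T arrays. The si-control difference was 6.03 ± 0.56, or 65.5-fold, and 0.497% of all probes were higher by as much. EPHB2 gave 2.82 to 3.51 in Ls174T and 0.91 to 1.66 in HEK293T cells, a difference of 2.01 ± 0.46. EPHB4 did not separate the lines, with 1.45 to 1.68 and 0.90 to 1.59. For EPHB3 the value depended on scaling (4.64 with normexp and loess, 7.83 on the sample channel alone) but stayed far past the threshold. Its size rests on a dim HEK293T spot, at 2.06-fold the local background in control medium.

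EPHA1 gave 2.62 to 2.82 in Ls174T cells and was not well above background in HEK293T cells, so that only a bound can be given. Its level was at least 24.0-fold higher in Ls174T, set against the lowest signal of any probe well above background. This bound was taken per channel after Aquantile normalization between arrays. Both si-control samples were in Cy3 without a dye swap, so a dye bias was not checked. EPHA2 gave 1.57 to 2.09 in Ls174T and −0.06 to 0.74 in HEK293T cells, a difference of 1.97 ± 0.35. Among the member receptors, EPHA4 alone had the higher level in HEK293T cells. Its differences were −1.12 ± 0.31 on A_23_P108501, −1.16 ± 0.31 on A_23_P119899 and a value at the threshold of 2-fold on A_24_P274219. All 3 lay close to the threshold, and with normexp and loess 2 of them were −0.34 and −0.25. The ranges of EPHA4 over all arrays of the lines overlapped on A_23_P119899 and A_24_P274219, where the p300-depleted HEK293T array reached the Ls174T values.

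Of the ligands, EFNA1 was higher in Ls174T by 2.27 ± 0.38 (A_23_P254512) and 1.95 ± 0.32 (A_23_P113005), and EFNA4 by 1.46 ± 0.30. The lines did not overlap on any of these 3 probes, but the share of all probes without overlap was not counted. EFNB1 gave 0.01 to 0.26 in Ls174T and −0.70 to −0.44 in HEK293T cells, a difference of 0.77 ± 0.29 that was inside 2-fold. EFNB2 was at about the same level in both, with differences of 0.25 ± 0.48 and −0.24 ± 0.32. In these ratios the A-type ligands separated the lines past the threshold and the B-type ligands did not. This contrast was not kept with normexp and loess, where EFNA1 A_23_P113005 (0.79) and EFNA4 (0.89) were inside 2-fold and EFNB2 A_23_P428139 (1.34) was past it. With the outlying backgrounds first set to the median they were 1.87, 1.46 and 0.09.

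**Figure D4:**
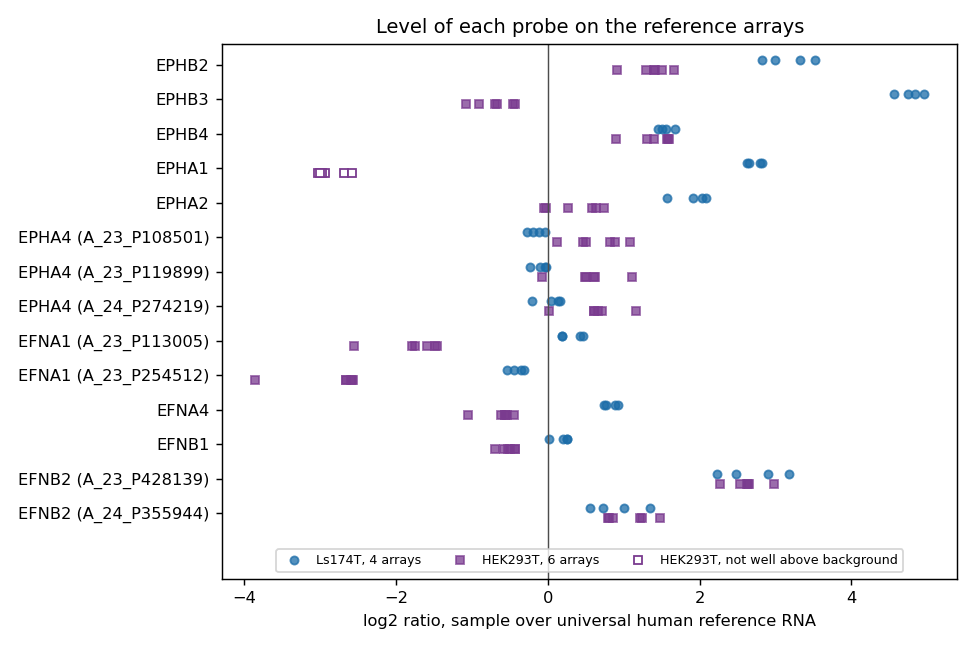
Log2 ratio of each member probe to the universal human reference on the 4 Ls174T and 6 HEK293T reference arrays, with open squares where the sample signal was not well above background. EPHB3 and EPHA1 separate the lines most, both EFNB2 probes and EPHB4 overlap, and values of different probes are not comparable with each other.

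The other 12 Eph and ephrin genes on the array were sparsely measured in Ls174T cells, where EPHA3, EPHA5, EPHA6, EPHA7, EPHA8 and EPHB1 were not well above background on the si-control array. Of their 19 probes, 2 were well-measured on the β-catenin pair and 7 in each cofactor comparison, and 0 were past the threshold in any of these. In HEK293T cells 8 to 10 of the probes were well-measured. The kinase-deficient receptor EPHB6 was lower with BRG1 depleted (−1.44 ± 0.50) and with p300 depleted (−0.89 ± 0.46), and EFNB3 (ephrin-B3) was lower with BRG1 depleted on probe A_24_P940006 (−1.27 ± 0.30) but not on A_23_P433588 (0.07 ± 0.30). A probe of the receptor EPHA7 was lower in Wnt3A (−0.59 ± 0.71) and higher with DOT1L (1.21 ± 0.77), BRG1 (1.13 ± 0.75) and p300 (0.72 ± 0.73) depleted, all against the same Wnt3A array and with errors near the size of the changes, whereas its other probe A_24_P226332 was at −0.48, −0.46 and −0.12 in these depletions. EPHA8 was lower with DOT1L depleted (−0.68 ± 0.57) and EPHA10 higher with MLLT10/AF10 depleted (0.76 ± 0.46). Between the lines, the EFNB3 probes disagreed, with −3.54 ± 0.42 on A_24_P940006 and 0.61 ± 0.33 on A_23_P433588 for Ls174T against HEK293T cells. EFNA5 (ephrin-A5) was at −2.37 ± 0.34, whereas EPHB6 was at 1.65 ± 0.39 and EPHA10 at 1.67 ± 0.53. The receptor EPHA3 was at −4.87 ± 0.58, with a Ls174T signal that was not well above background. Of the Eph pathway genes, 37 of the 41 listed could be matched to a probe. Of their 54 well-measured probes, 9 were higher and 8 lower in Ls174T cells past 2-fold, beside 14.0% higher and 18.9% lower of all probes. The list thus lay near the share of all probes. On the higher side was RGS3, a regulator that binds ephrin-B (2.90 ± 0.44). On the lower were the kinase FYN (−4.50 ± 0.15), the ubiquitin ligase CBL (−2.32 ± 0.34) and the Ras GTPase-activating protein RASA1 (−2.23 ± 0.39).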

How the data were processed

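Total RNA of Ls174T and HEK293T cells was labeled with Cy3 or Cy5 and hybridized to dual-color Agilent 4x44K arrays. The image analysis by the authors used Agilent Feature Extraction (version 10.5.1.1 per the file headers). The intensity values they deposited comprise, for each channel of a spot, the median signal, its local background and a processed signal after the program's background and dye correction. They also deposited log10 ratios of Cy5 over Cy3, once per array and once as a table of all arrays, which differed by at most 1.5e-05 in log2 units. For the β-catenin pair the labels, which name si-control RNA as partner, were followed, although the methods name reference RNA for all arrays.

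Ratios were converted to log2 with the sample, or the depleted RNA, in the numerator. A change is the mean of the β-catenin pair, which counts as 1 replicate, or the difference of an array from its si-control or control medium array. A probe was well-measured where 1 or both channels were above 2-fold local background on each array involved, and control and outlier spots were dropped. Thresholds were 2-fold for β-catenin depletion and between lines and 1.5-fold otherwise. Of 29084 features with a RefSeq accession, 27612 (94.9%) received a symbol. No spot was saturated (0 on each array). The number of arrays limits the precision.

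Alternatives were normexp (offset 50) with loess in limma 3.58.1 (R 4.3.3), the same with outlying background values set to the array median (added after seeing the data), the sample channel alone after Aquantile normalization, the deposited table, other filters, another fold, centring on the array median, and each array of the pair alone. The steps were tested on simulated data. Members and gene lists (from general knowledge) were chosen with earlier results of these data known. Every member probe is described, and of each list at most the 4 largest changes past the threshold and well above background are named. EPHA3 between the lines is named in addition.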

Additional observations from a re-analysis of the deposited data

Results flagged for a closer look

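MLLT10/AF10 depletion gave opposite directions for EFNB2 in the 2 lines. On probe A_24_P355944 the log2 change was 0.34 in Ls174T cells, from 1.01 on the si-control array to 1.34, and −0.42 in HEK293T cells, from 1.21 on the si-control Wnt3A array to 0.79. Each exceeded its program error. Probe A_23_P428139 had the same signs, with 0.28 and −0.37, both smaller than the error, but on the sample channel alone it was 0.35 and 0.32, the same direction in both lines, whereas A_24_P355944 stayed at 0.34 and −0.33. Each line has 1 array per condition, and none of the 4 changes was past 1.5-fold. The HEK293T arrays lie on different slides and the cells had Wnt3A, so the difference between the lines was not tested. The lower HEK293T value of A_24_P355944 was not particular to MLLT10/AF10. Against the same si-control Wnt3A array, this probe was at −0.40 with DOT1L, −0.35 with p300 and 0.27 with BRG1 depleted.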

How the results depend on the processing

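Counts of Eph and ephrin probes past the threshold moved with the processing and the threshold. Normexp and loess changed background correction and dye normalization together, so their effects were not separated. With normexp and loess they were 3 in place of 6 after β-catenin depletion, 6 in place of 0 after BRG1 depletion in Ls174T cells and 2 in place of 4 after p300 depletion in HEK293T cells, and the Wnt3A change of EPHB3 reversed to −0.34. None of the 3 Wnt3A calls was kept (EPHA2 0.31, EPHA4 −0.50), and 4 other probes passed instead (EFNA1 −1.02, EFNB2 1.19, EPHB2 0.78 and EPHB4 0.67). On the sample channel alone none of the 3 was kept either (EPHA2 0.53, EPHB3 0.37, EPHA4 −0.56). For BRG1 depletion in HEK293T cells, normexp and loess kept neither call (EPHA2 −0.33, EFNA4 −0.16). EFNB2 A_23_P428139 (−0.86), EPHB2 (−0.73) and EPHB4 (−0.65) passed instead. With outlying background values set to the array median, the counts were 3 for β-catenin, 1 in place of 2 for p300 in Ls174T, 1 in place of 3 for Wnt3A, 1 in place of 2 for BRG1 in HEK293T and 2 in place of 4 for p300 in HEK293T cells. EPHB3 after Wnt3A was then 0.68, without the reversal. This setting changed outlying background values over whole arrays and the fits made on them, so the source of the reversal was not tested. Setting the threshold at 2-fold left 0 for p300 in Ls174T, 0 for Wnt3A, 0 for BRG1 and 2 for p300 in HEK293T cells. Requiring both channels above background left 1 for p300 in Ls174T cells. BRG1 depletion in Ls174T cells gave 1 with arrays centred on their median and 2 on the sample channel alone. The cause of these differences was not tested. Each array of the β-catenin pair alone gave 6 to 7 probes. No paired analysis was possible because each condition has 1 biological replicate. Signal over background limits EPHA1, EPHB3 and EPHA2 in HEK293T cells and the dim EPHA4 and EFNB2 probes on the β-catenin pair.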

Other observations

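Over the 10 reference arrays, with each line's mean taken out, EFNA1 (A_23_P254512), EFNB2 (A_23_P428139) and EPHA2 had spreads of 0.38, 0.30 and 0.29 (SD of the log2 ratio). Among 23562 probes searched, those that followed EFNA1 most closely were of SMC5, PLPP5 and EIF4E3, each with Pearson's r of 0.95. EFNB2 was followed most closely by PARP10 (0.96), NEBL (0.95) and GART (0.94), and EPHA2 by probes that include those of NUP188 and EGR1 (0.93 each). These values describe arrays that share slides and the reference RNA, and for EFNA1 they rest largely on the p300-depleted HEK293T array.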
